A study of Homo sapiens with 22 samples.

Results

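The aminoacyl-tRNA synthetases are the enzymes that load each tRNA with its amino acid, and 35 of their genes were followed here by BRIC-Seq in HEK293T cells, a human embryonic kidney cell line. Each gene is represented by 1 of the 227264 transcripts in the tables, its protein_coding transcript with the highest mean count over the 0-10 h libraries. Of the 35 genes, 19 encode the cytosolic enzymes and 16, whose symbols end in 2, encode the mitochondrial ones. BRIC-Seq labels new RNA with bromouridine, removes the label, and pulls the labelled RNA down with an antibody after increasing times, so that the loss of transcripts can be followed without stopping transcription. Cells expressed shControl, a control short hairpin RNA, or shZNF598, a hairpin against ZNF598, the ubiquitin ligase that recognises collided ribosomes. All cells had 150 µM bromouridine for 24 h and were then chased without it, with samples taken at the end of labelling (0 h) and after 2, 4, 6, 10 and 24 h. There were 2 libraries per hairpin at each time from 0 to 10 h and 1 per hairpin at 24 h, 22 libraries in 12 groups. The comparison between hairpins asked whether loss of ZNF598 changed the level of labelled transcripts or the rate at which they were lost.

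Each synthetase recognises 1 amino acid and the tRNAs that carry it, activates the amino acid with ATP and joins it to the tRNA end, and so sets which amino acid each codon brings. Human cells keep separate nuclear genes for most cytosolic and mitochondrial enzymes, and the latter are imported into mitochondria to serve the few proteins made there. KARS1 and GARS1, the lysine and glycine enzymes, serve both compartments from 1 gene. Among the cytosolic enzymes EPRS1, IARS1, KARS1, LARS1, MARS1, QARS1 and RARS1 sit together in the multi-tRNA synthetase complex, which is held by the scaffold proteins AIMP1, AIMP2 and EEF1E1, and EPRS1 joins the glutamate and proline enzymes in 1 chain. The cytosolic synthetase genes are also known targets of ATF4, the transcription factor of the integrated stress response, which binds an element shared with C/EBP proteins.

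Total counts ran from 52352359 to 96963584 per library over 0-10 h, and a read was counted in every isoform it overlapped, so these totals exceed the reads sequenced. The 24 h libraries were shallower, at 21220829 counts for shControl and 40157613 for shZNF598. Levels are in CPM, the count of a transcript as a share of the library total after scaling of the libraries (TMM), and they are relative to the other labelled transcripts of a library, because the spike-in RNAs were not used. The labels do not say whether the 2 libraries of a group came from separate cultures. The p-values for levels therefore measure the spread between these libraries, which may be technical. Those for the change over chase time come from a straight line, so they also take in any bend of the time course. ZNF598 itself stood between 3.97 and 8.37 CPM in the 10 shControl libraries and between 0.411 and 1.05 CPM in the 10 shZNF598 libraries, with no overlap. At 24 h it was at 4.80 CPM in the shControl library and 2.36 CPM in the shZNF598 library. The shControl libraries of 0 h differed from each other most, with a correlation of log2 levels of 0.974 against 0.986 or more in the other groups. Of the HEK293T markers CDH2, NEFL and VIM were detected in every library and NEFM stood between 0.655 and 1.98 CPM, whereas LHX1 and PAX2 were near 0, at no more than 0.372 and 0.0977 CPM. HBB, a marker of red cells, was at 0 in all 20 libraries of 0-10 h, and PTPRC, ALB and CDH5 reached no more than 0.0335, 0.0322 and 0.0400 CPM. COL1A1, a fibroblast collagen, and DES, a muscle filament, were above 0 in every library, at 0.563 to 1.76 and 0.129 to 0.903 CPM, so COL1A1 was about as high as NEFM.

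The synthetase genes lie on many chromosomes, with the positions below from GENCODE release 44 on GRCh38. HARS1 (chr5:140673905-140691370, minus strand, 13 exons) and HARS2 (chr5:140691455-140699305, plus strand, 13 exons), the cytosolic and mitochondrial histidine enzymes, start head to head with 84 bases between them. EPRS1 and IARS2 are divergent neighbours on chromosome 1 with 47626 bases between them, and VARS2 and VARS1 lie on chromosome 6 with 851058 bases between them. The row used was the MANE Select transcript for 31 of the 35 genes, and for IARS1, KARS1, LARS2 and VARS2 it was another protein-coding isoform. Exons of 15 members overlapped another annotated gene. The row of VARS2 lay wholly within a long noncoding gene on the same strand, and 77.5% of the SARS2 row lay within a second protein-coding gene model on the same strand, so the reads of these rows cannot be assigned to 1 gene. YARS2, HARS1 and GARS1 shared 18.3%, 11.3% and 10.9% of their rows with genes on the opposite strand, and whether the counting used strand is not given in the sources used here.

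The promoters, 250 bases before to 50 bases after the gene start in the RefSeq table for GRCh38.p14, were searched on both strands for TGATGCAA, a form of the element bound by ATF4 with C/EBP proteins. A window was found for 30 of the 35 members, with no entry for VARS1, LARS1, YARS1, AARS2 and VARS2. The element occurred in 6 of the 16 cytosolic genes with a window and in 0 of the 14 mitochondrial ones. Over all genes of the table it occurred in 295 of 27305, or 1.08%, and over all promoters in 304 of 35116, or 0.866%. The 0 of 14 mitochondrial genes is near that share of genes. A match describes letters and does not show binding, and no match says only that these letters were not in that window. The 6 windows are shown because they divide the cytosolic genes for the comparisons that follow, each as 24 bases read 5′ to 3′ along the gene with the element in capitals (TTGCATCA is its reverse complement).
AARS1 (chr16:70289678-70289701, gene on the minus strand): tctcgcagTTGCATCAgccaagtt
CARS1 (chr11:3057410-3057433, gene on the minus strand): ggcggcggTTGCATCAgattctag
IARS1 (chr9:92293695-92293718, gene on the minus strand): tcagcgcgTTGCATCAcctccgtg
MARS1 (chr12:57488056-57488079, gene on the plus strand): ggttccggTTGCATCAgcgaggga
NARS1 (chr18:57621807-57621830, gene on the minus strand): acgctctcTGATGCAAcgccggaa
TARS1 (chr5:33440959-33440982, gene on the plus strand): cctttcgaTTGCATCAgctggtcc
In 5 of the 6 genes the element was in the antisense orientation, and it lay between 187 bases before and 14 bases after the gene start, counted to its first base. In AARS1 it was 187 bases before the start, and in the other 5 genes it was within 14 bases of it.

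At the end of labelling the cytosolic synthetase transcripts were the more abundant ones. On the scale of CPM per kilobase of transcript, in the 2 shControl libraries of 0 h, SARS1, the serine enzyme, had the highest mean at 26.6, followed by KARS1 at 22.3, IARS1 at 17.9, RARS1 at 17.5, AARS1 at 16.9 and FARSA at 16.2. The first 15 places were all taken by cytosolic enzymes. IARS2, the mitochondrial isoleucine enzyme, was the highest of the mitochondrial group at 8.75 and stood 16th, with EARS2 at 7.54 and TARS2 at 6.55 next among them. The cytosolic enzymes MARS1 at 7.94, VARS1 at 2.99, FARSB at 2.30 and CARS1 at 2.09 stood among the mitochondrial ones. The lowest were MARS2 at 2.10, CARS1 and VARS2 at 1.75. Most neighbours in this order overlapped between the 2 libraries. The genes that lay below the next higher one without overlap were IARS1, RARS1, AARS1, GARS1, QARS1, CARS2, MARS2 and VARS2. FARSA and FARSB, the 2 subunits of the cytosolic phenylalanine enzyme, stood at 16.2 and 2.30 CPM per kilobase, where the FARSB row is a long isoform of 6761 bases.

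The time course gave each transcript a slope, the change of its log2 level per hour of chase relative to the other labelled transcripts. A positive slope means that the transcript made up a growing share of the labelled RNA, not that its amount grew. Of the 35 members some gained share, some lost it, and others were not shown to do either. The slopes of the 2 hairpins were nearly the same, as they were over all genes (Pearson's r 0.983 and 0.975). Tested over the 79513 transcripts that averaged 1 CPM or more (edgeR's quasi-likelihood test with Benjamini-Hochberg adjustment, adjusted p below 0.05 throughout), 24 members had a slope different from 0 in shControl cells, 11 positive and 13 negative, where the background was 74.4% of transcripts called, 33.5% positive and 40.8% negative. In shZNF598 cells 25 members were called, 11 positive and 14 negative, against a background of 71.2%, 32.7% and 38.5%. The same 11 members were positive with both hairpins and 12 were negative with both, 3 were called with 1 hairpin, 9 with neither, and 0 changed direction. Over the 10725 genes with 1 row each, as the members have, the background was 77.9% called, 25.4% positive and 52.5% negative in shControl cells, and 74.6%, 25.3% and 49.3% in shZNF598 cells, so the members' negative share was below that of genes and close to that of transcripts. The typical gene lost share, with a median slope of -0.057 in shControl cells and -0.049 in shZNF598 cells over 10725 genes with 1 row each, and 25 and 24 of the 35 members lay above those medians.

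**Figure D1:**
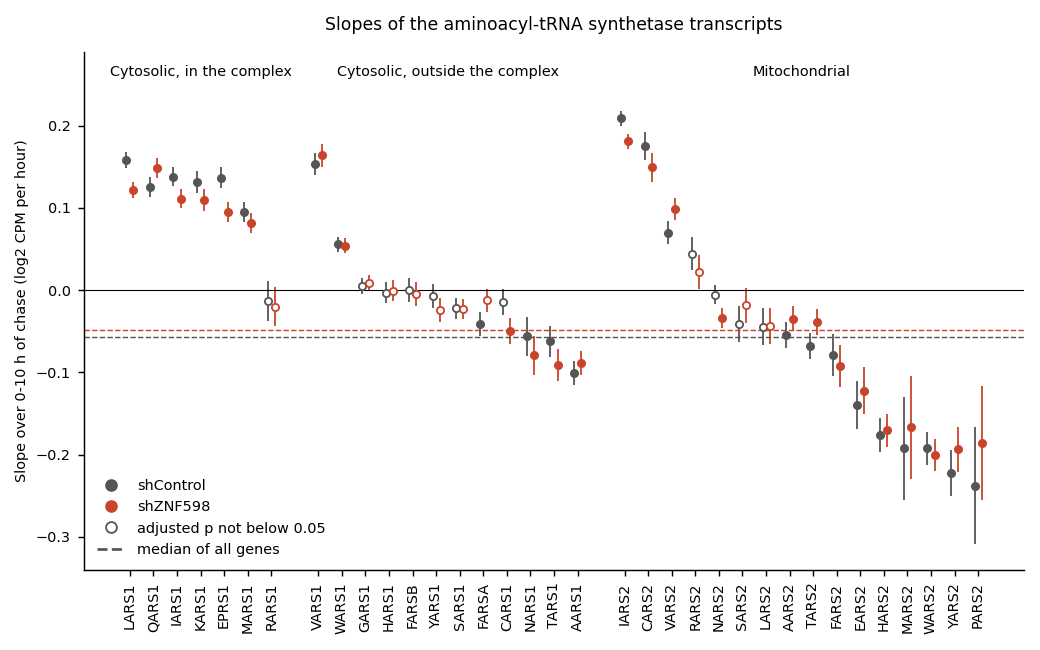
Slope over 0-10 h of chase (log2 CPM per hour) for the 35 members with each hairpin, as points with the standard error of the fit (20 libraries), filled where the adjusted p was below 0.05 and ordered by mean slope within each group; dashed lines give the median of 10725 genes. Of the 7 members in the complex 6 lie above 0 and the mitochondrial enzymes reach from IARS2 at 0.209 to PARS2 at -0.238 in shControl cells.

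The cytosolic enzymes lay in the middle and upper part of all genes and the mitochondrial ones were spread over nearly the whole range. The median slope of the 19 cytosolic members was 0.00023 in shControl cells and -0.00087 in shZNF598 cells, and that of the 16 mitochondrial members was -0.061 and -0.041. The direction depended on the chase window: over 0-4 h the mitochondrial medians were 0.021 and 0.0090 and the cytosolic ones 0.044 and 0.054, and over 0-6 h they were -0.0064 and -0.010 and 0.034 and 0.046. In shControl cells 17 of the 19 cytosolic members and 8 of the 16 mitochondrial ones lay above the median of all genes. In shControl cells the lowest mitochondrial member lay above 3.43% of genes and the highest above 98.0%, against 35.5% and 93.7% for the cytosolic ones. In shControl cells 8 cytosolic members were called positive and 4 negative, and 3 mitochondrial members positive and 9 negative. Over genes with 1 row each 25.4% were called positive and 52.5% negative, and the mitochondrial split was near those shares. Summed over their 19 rows, the cytosolic enzymes rose from 676 and 701 CPM at 0 h to 1029.8 and 1086 at 10 h in shControl cells and from 687 and 685 to 972 and 916 in shZNF598 cells. Summed over 16 rows, the mitochondrial enzymes stood at 231 and 253 and 269.8 and 283 CPM in shControl cells and at 255 and 256 and 262 and 273 in shZNF598 cells at the same times. Abundant rows weigh most in these sums. The 7 rows of the complex went from a mean of 324 to 731 CPM in shControl cells and from 334 to 630 in shZNF598 cells. That rise was larger than the rise of all cytosolic rows, so the other 12 cytosolic rows together fell. IARS2, given below, rose by more than the mitochondrial sum did, so the other mitochondrial rows together fell. The sums are descriptions, with no test of the difference between the locations.

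Most enzymes of the multi-tRNA synthetase complex gained share. Of its 7 members here, 6 were called positive with both hairpins, where 25.4% and 25.3% of genes were, and RARS1, the arginine enzyme, was called with neither, at -0.014 ± 0.024 in shControl cells and -0.020 ± 0.024 in shZNF598 cells (SE, as in all slopes). The median slope of the 7 was 0.131 and 0.109, and in shControl cells the median member lay higher than 90.4% of genes. IARS1, the isoleucine enzyme, had slopes of 0.138 and 0.111 in shControl and shZNF598 cells, KARS1 of 0.131 and 0.109 and MARS1, the methionine enzyme, of 0.095 and 0.082. RARS1 rose to 0.47 on the log2 scale at 6 h in shControl cells and stood at -0.15 at 10 h, both against 0 h, so a straight line describes it poorly. Summed over the 7 rows, the complex stood at 321 and 326 CPM at 0 h, 577 and 612 at 6 h and 704 and 758 at 10 h in shControl cells, a 2.26-fold rise. In shZNF598 cells the sum went from 328 and 341 to 657 and 603 CPM, a 1.88-fold rise.

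LARS1, which charges leucine tRNAs (chr5:146113034-146182650, minus strand, 32 exons), had the highest slope of the complex in shControl cells. LARS1 in shControl cells stood at 43.3 and 40.5 CPM at 0 h, 47.2 and 49.95 at 2 h, 62.7 and 65.2 at 4 h, 84.5 and 87.7 at 6 h and 113 and 125 at 10 h. LARS1 in shZNF598 cells stood at 41.8 and 44.1 CPM at 0 h, 49.5 and 51.1 at 2 h, 64.6 and 61.5 at 4 h, 79.4 and 69.9 at 6 h and 106 and 90.6 at 10 h. The 2 hairpins overlapped at 3 of the 5 times, and the shZNF598 libraries lay below at the other 2. The slope was 0.158 ± 0.0099 in shControl cells and 0.121 ± 0.010 in shZNF598 cells. EPRS1 (chr1:219968600-220046505, minus strand, 32 exons) had the most negative slope difference of all members. EPRS1 in shControl cells stood at 63.2 and 56.1 CPM at 0 h, 73.2 and 72.96 at 2 h, 86.4 and 92.4 at 4 h, 121 and 114 at 6 h and 142 and 158 at 10 h. EPRS1 in shZNF598 cells stood at 60.8 and 58.4 CPM at 0 h, 68.96 and 77.8 at 2 h, 91.8 and 91.5 at 4 h, 113 and 90.01 at 6 h and 123 and 108 at 10 h. Both shZNF598 libraries lay below both shControl libraries at 2 of the 5 times. The slope was 0.137 ± 0.012 in shControl cells and 0.095 ± 0.013 in shZNF598 cells. QARS1, which charges glutamine tRNAs (chr3:49095932-49104757, minus strand, 24 exons), was the member of the complex with a positive slope difference, which was not called. QARS1 in shControl cells stood at 24.8 and 25.7 CPM at 0 h, 25.5 and 25.02 at 2 h, 32.9 and 28.2 at 4 h, 35.96 and 43.8 at 6 h and 58.2 and 54.7 at 10 h. QARS1 in shZNF598 cells stood at 18.6 and 20.6 CPM at 0 h, 22.1 and 21.8 at 2 h, 27.5 and 26.7 at 4 h, 33.6 and 40.01 at 6 h and 49.3 and 55.5 at 10 h. The shZNF598 libraries lay below the shControl libraries at 3 of the 5 times and overlapped them at the other 2. The slope was 0.125 ± 0.012 in shControl cells and 0.149 ± 0.012 in shZNF598 cells.

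Outside the complex 6 of the 12 cytosolic members were called with each hairpin, 2 positive and 4 negative. Over genes with 1 row each 77.9% were called in shControl cells, 25.4% positive and 52.5% negative. In shZNF598 cells these shares were 74.6%, 25.3% and 49.3%. VARS1 and WARS1, the valine and tryptophan enzymes, were called positive with both hairpins, AARS1, NARS1 and TARS1, the alanine, asparagine and threonine enzymes, were called negative with both, and FARSA and CARS1, the cysteine enzyme, were below 0 with both but called with 1 hairpin each, FARSA with shControl and CARS1 with shZNF598. The slopes of FARSB, GARS1, HARS1, SARS1 and YARS1 were called with neither hairpin and lay between -0.024 and 0.008. The median slope of the 12 was -0.011 and -0.018. WARS1 had slopes of 0.056 and 0.054 in shControl and shZNF598 cells and NARS1 of -0.056 and -0.079.

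VARS1 (chr6:31777518-31795752, minus strand, 30 exons) had the highest mean slope of the cytosolic members. VARS1 in shControl cells stood at 12.98 and 11.6 CPM at 0 h, 11.8 and 13.6 at 2 h, 20.5 and 15.8 at 4 h, 20.9 and 20.9 at 6 h and 36.4 and 31.4 at 10 h. VARS1 in shZNF598 cells stood at 10.7 and 9.94 CPM at 0 h, 12.6 and 13.4 at 2 h, 18.9 and 14.4 at 4 h, 19.1 and 19.7 at 6 h and 29.9 and 35.4 at 10 h. Every library of 10 h lay above every library of 0 h with both hairpins. The slope was 0.153 ± 0.013 in shControl cells and 0.164 ± 0.014 in shZNF598 cells. AARS1 (chr16:70252298-70289506, minus strand, 21 exons) had the lowest. AARS1 in shControl cells stood at 58.5 and 58.8 CPM at 0 h, 61.6 and 61.5 at 2 h, 58.1 and 51.1 at 4 h, 37.9 and 40.1 at 6 h and 33.1 and 30.9 at 10 h. AARS1 in shZNF598 cells stood at 57.4 and 47.7 CPM at 0 h, 55.8 and 61.1 at 2 h, 51.95 and 48.1 at 4 h, 39.9 and 37.96 at 6 h and 31.2 and 31.7 at 10 h. The 6 and 10 h libraries lay below all libraries of 0, 2 and 4 h with both hairpins. The slope was -0.101 ± 0.015 in shControl cells and -0.089 ± 0.015 in shZNF598 cells. TARS1 (chr5:33440965-33468086, plus strand, 19 exons) was the next lowest. TARS1 in shControl cells stood at 54.4 and 51.99 CPM at 0 h, 55.4 and 55.3 at 2 h, 52.2 and 56.99 at 4 h, 52.9 and 53.7 at 6 h and 31.9 and 36.2 at 10 h. TARS1 in shZNF598 cells stood at 55.4 and 54.6 CPM at 0 h, 57.1 and 61.3 at 2 h, 56.2 and 56.9 at 4 h, 53.96 and 47.04 at 6 h and 32.2 and 27.3 at 10 h. It too fell late, and its 10 h libraries were the lowest with both hairpins. The slope was -0.062 ± 0.019 in shControl cells and -0.091 ± 0.019 in shZNF598 cells. FARSA (chr19:12922479-12933711, minus strand, 13 exons) had the most positive slope difference of the cytosolic members. FARSA in shControl cells stood at 25.6 and 33.01 CPM at 0 h, 24.7 and 24.4 at 2 h, 28.3 and 27.7 at 4 h, 24.9 and 27.7 at 6 h and 21.7 and 19.6 at 10 h. FARSA in shZNF598 cells stood at 25.5 and 24.6 CPM at 0 h, 24.1 and 21.9 at 2 h, 23.9 and 23.6 at 4 h, 21.7 and 25.6 at 6 h and 18.6 and 26.1 at 10 h. The shZNF598 libraries lay below at 3 of the 5 times. The slope was -0.041 ± 0.015 in shControl cells and -0.013 ± 0.014 in shZNF598 cells.

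Among the mitochondrial enzymes IARS2, CARS2 and VARS2 were called positive with both hairpins, 9 were called negative with both, NARS2 was below 0 with both and called with shZNF598, and LARS2, RARS2 and SARS2, the leucine, arginine and serine enzymes, were called with neither. Synthetases fall into 2 unrelated structural classes, and the 7 mitochondrial members of class II all had slopes below 0 with both hairpins, 5 of them called in shControl and 6 in shZNF598 cells. The 9 mitochondrial members of class I reached from IARS2 down to YARS2 in shControl cells and to WARS2 in shZNF598 cells. With each hairpin 3 of them were called positive and 4 negative. Over 10725 genes 33.9% of slopes in shControl and 34.4% in shZNF598 cells were above 0. Called negative were 52.5% and 49.3% of genes, and called positive 25.4% and 25.3%. EPRS1, of both classes, aside, 6 and 7 of the 9 cytosolic members of class II had slopes below 0 in shControl and shZNF598 cells. Of the 9 cytosolic members of class I it was 3 with each hairpin. VARS2, the valine enzyme, had slopes of 0.070 and 0.098 in shControl and shZNF598 cells. WARS2, the tryptophan enzyme, had -0.192 and -0.200, MARS2, the methionine enzyme, -0.193 and -0.167, HARS2 -0.176 and -0.171, EARS2, the glutamate enzyme, -0.139 and -0.123 and FARS2, the phenylalanine enzyme, -0.078 and -0.092. The head-to-head pair parted: HARS2 lost share while its neighbour HARS1 was at -0.0030 and -0.00087, not called with either hairpin.

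IARS2 (chr1:220094132-220148041, plus strand, 23 exons) had the highest slope of all 35. IARS2 in shControl cells stood at 31.6 and 30.1 CPM at 0 h, 41.4 and 39.4 at 2 h, 51.9 and 55.8 at 4 h, 76.7 and 69.9 at 6 h and 126 and 134 at 10 h. IARS2 in shZNF598 cells stood at 29.5 and 31.3 CPM at 0 h, 35.4 and 38.7 at 2 h, 52.4 and 49.8 at 4 h, 60.7 and 54.3 at 6 h and 110.2 and 105 at 10 h. Its level rose at every time, and at 2, 6 and 10 h both shZNF598 libraries lay below both shControl libraries. The slope was 0.209 ± 0.0094 in shControl cells and 0.181 ± 0.0093 in shZNF598 cells, higher than in 97.97% and 97.2% of genes. CARS2 (chr13:110641417-110706116, minus strand, 15 exons), the mitochondrial cysteine enzyme, came next. CARS2 in shControl cells stood at 6.60 and 8.26 CPM at 0 h, 6.79 and 6.78 at 2 h, 10.3 and 9.02 at 4 h, 12.9 and 14.1 at 6 h and 20.9 and 23.8 at 10 h. CARS2 in shZNF598 cells stood at 7.80 and 8.22 CPM at 0 h, 7.42 and 7.12 at 2 h, 10.02 and 10.4 at 4 h, 12.97 and 15.6 at 6 h and 18.1 and 21.8 at 10 h. It was flat to 2 h and rose from 4 h on with both hairpins. The slope was 0.175 ± 0.017 in shControl cells and 0.149 ± 0.018 in shZNF598 cells.

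PARS2 (chr1:54756898-54764523, minus strand, 2 exons), the mitochondrial proline enzyme, had the lowest mean slope and the most positive slope difference. PARS2 in shControl cells stood at 5.33 and 7.15 CPM at 0 h, 2.10 and 3.07 at 2 h, 0.901 and 0.827 at 4 h, 0.759 and 0.598 at 6 h and 1.61 and 1.09 at 10 h. PARS2 in shZNF598 cells stood at 5.58 and 5.65 CPM at 0 h, 2.09 and 1.98 at 2 h, 0.636 and 0.612 at 4 h, 0.914 and 0.953 at 6 h and 1.42 and 1.78 at 10 h. With counts between 30 and 538 per library it was among the most thinly counted members, and its level dropped within 4 h and stood higher again at 10 h in both replicates with each hairpin. The slope was -0.238 ± 0.071 in shControl cells and -0.186 ± 0.070 in shZNF598 cells. YARS2 (chr12:32746544-32755897, minus strand, 5 exons), the mitochondrial tyrosine enzyme, fell between 2 and 6 h. YARS2 in shControl cells stood at 9.69 and 12.6 CPM at 0 h, 10.04 and 9.74 at 2 h, 5.57 and 6.55 at 4 h, 2.86 and 3.41 at 6 h and 2.76 and 2.98 at 10 h. YARS2 in shZNF598 cells stood at 12.8 and 12.1 CPM at 0 h, 11.7 and 10.6 at 2 h, 6.21 and 6.35 at 4 h, 4.22 and 3.51 at 6 h and 3.74 and 3.93 at 10 h. The lowest 0 h library lay above the highest 6 h library with both hairpins. The slope was -0.222 ± 0.028 in shControl cells and -0.194 ± 0.027 in shZNF598 cells. NARS2 (chr11:78435968-78574864, minus strand, 14 exons), the mitochondrial asparagine enzyme, had the most negative slope difference of the mitochondrial group. NARS2 in shControl cells stood at 7.94 and 6.70 CPM at 0 h, 7.58 and 7.89 at 2 h, 7.93 and 8.06 at 4 h, 8.15 and 8.68 at 6 h and 6.71 and 7.16 at 10 h. NARS2 in shZNF598 cells stood at 7.54 and 8.12 CPM at 0 h, 7.85 and 7.20 at 2 h, 7.31 and 7.08 at 4 h, 7.25 and 6.54 at 6 h and 6.55 and 5.84 at 10 h. The shZNF598 libraries lay below at 3 of the 5 times. The slope was -0.0054 ± 0.012 in shControl cells and -0.034 ± 0.012 in shZNF598 cells.

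Several slopes did not survive the loss of 1 library. In shControl cells the call of FARSA was lost without any of 3 libraries (replicate 2 of 0 h, or either of 10 h), at -0.040 to -0.030 with adjusted p from 0.0506 to 0.122, that of NARS1 without either 10 h library, at -0.035 and -0.031 (adjusted p 0.270 and 0.303), that of FARS2 likewise, at -0.064 and -0.056 (adjusted p 0.0684 and 0.0938), and that of TARS1 without 10 h replicate 1, at -0.042 (adjusted p 0.0787). In shZNF598 cells the call of AARS2, the mitochondrial alanine enzyme, was lost without any of 12 libraries, at -0.039 to -0.015 with adjusted p from 0.0505 to 0.431. Those of MARS2 and PARS2 were lost without either shZNF598 library of 0 h, at -0.137 and -0.130 and at -0.144 and -0.143, those of NARS1 and TARS2 without either of 10 h, at -0.060 and -0.057 and at -0.036 and -0.021, and that of NARS2 without 10 h replicate 2, at -0.027. All of these kept their negative sign.

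The time courses were often not straight. In shControl cells the highest mean level came at 10 h for 11 members, 8 cytosolic and 3 mitochondrial, at 0 h for 5, and at 2, 4 or 6 h for the other 19. MARS2 and PARS2, whose genes have 1 and 2 exons, fell to -2.69 and -2.85 on the log2 scale by 4 h in shControl cells and to -2.64 and -3.17 in shZNF598 cells. At 10 h they stood at -1.82 and -2.21 in shControl cells, above their 4 h values. With the slope fitted over 0-4 h, 15 members were called in shControl cells and 17 in shZNF598 cells, and NARS1, EARS2, FARS2 and TARS2, called negative over 0-10 h, were then above 0 with both hairpins though not called. The share of all transcripts called over 0-4 h is not given, so these counts do not set the members apart from other transcripts.

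**Figure D2:**
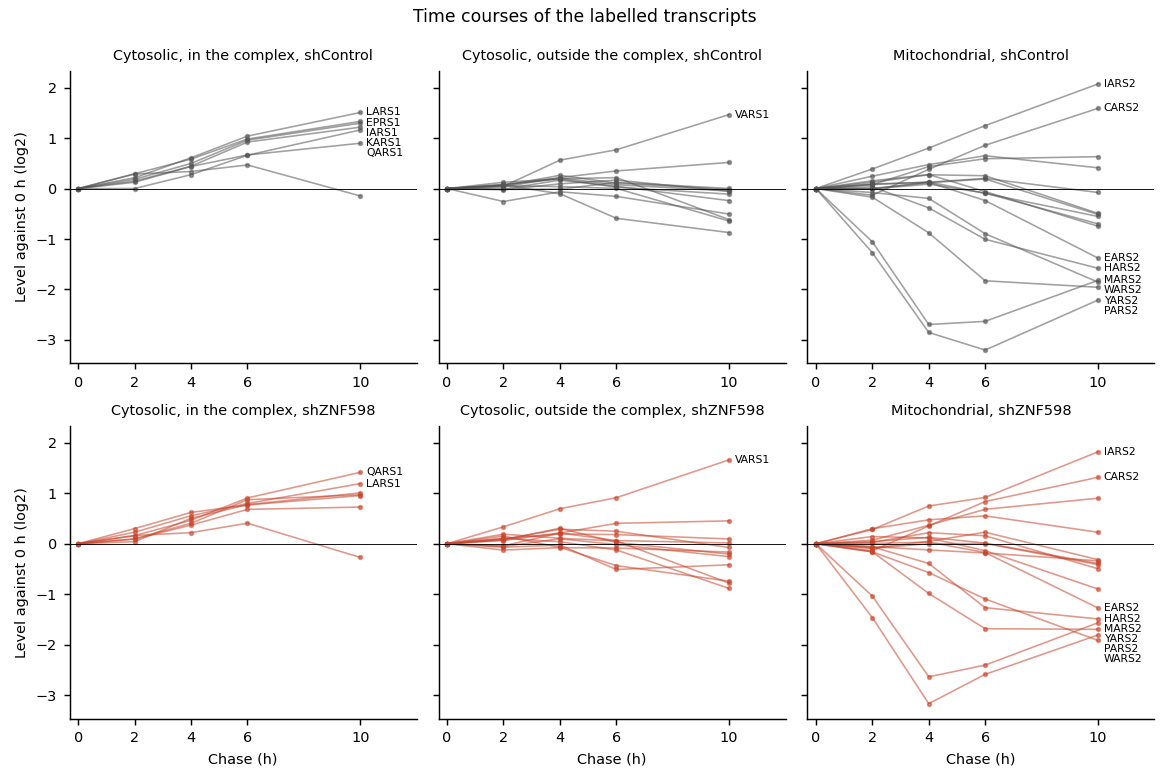
Mean log2 level against 0 h (y axis) over 0-10 h of chase (x axis, hours), 1 line per member and 2 libraries per point, for the complex, the other cytosolic and the mitochondrial members with each hairpin; the members that ended farthest from 0 are named. In the complex RARS1 is the line that turns down after 6 h, and among the mitochondrial members MARS2 and PARS2 drop to between -2.64 and -3.17 by 4 h and stand higher at 10 h.

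Apparent half-lives, from the regression of log2 fold changes against 0 h over the window that fitted best as in the rule of the study, could be given for few members. A value was reliable with both hairpins for 3 of the 35, MARS2 at 1.55 h with shControl and 1.60 h with shZNF598, PARS2 at 1.46 and 1.32 h, and YARS2 at 3.52 and 3.71 h. Over 10725 genes the rule gave a reliable value with both hairpins for 24.6%, with medians of 3.87 and 4.01 h. The rule passed HARS2 in shControl cells, at 6.39 h, and WARS2 in shZNF598 cells, at 5.35 h. With a fixed window of 0-10 h none of the 35 was reliable with both hairpins, where only 4.90% of the 10725 genes were. Over that window MARS2 came to 6.15 and 7.07 h, PARS2 to 4.88 and 6.80 h and YARS2 to 4.93 and 5.59 h. These values are relative to the bulk of labelled RNA, and 0 of the 19 cytosolic members had a reliable one with both hairpins.

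Within pairs that charge the same amino acid in the 2 compartments, the cytosolic transcript was mostly the more abundant one and gained on its partner. Per kilobase, and as the mean over libraries, it was higher in 15 of 17 pairs at 0 h and in 16 of 17 at 10 h with both hairpins. The exceptions at 0 h were CARS1 with CARS2 and FARSB with FARS2, and the first remained at 10 h. In shControl cells the log2 ratio was larger at 10 h than at 0 h in 12 pairs and smaller in 5, with a median change of 0.68. In shZNF598 cells it was larger in 11 and smaller in 6, with a median change of 0.77. In 11 and 10 of the pairs both libraries of 10 h lay above both libraries of 0 h, and in 5 and 6 below. The widest move was EPRS1 over PARS2, with a log2 ratio of 2.22 ± 0.42 at 0 h and 5.78 ± 0.51 at 10 h in shControl cells (SD, n = 2). MARS1 over MARS2 stood at 1.91 ± 0.12 at 0 h and 4.64 ± 0.0036 at 10 h, and WARS1 over WARS2 at 2.28 ± 0.025 at 0 h and 4.66 ± 0.11 at 10 h. The largest move the other way was CARS1 over CARS2, at -0.94 ± 0.048 at 0 h and -2.65 ± 0.10 at 10 h. IARS1 over IARS2 also fell, at 1.04 ± 0.046 at 0 h and 0.26 ± 0.0073 at 10 h, although both transcripts gained share. EPRS1 and FARS2 each stand in 2 pairs, so the 17 pairs are not independent.

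**Figure D3:**
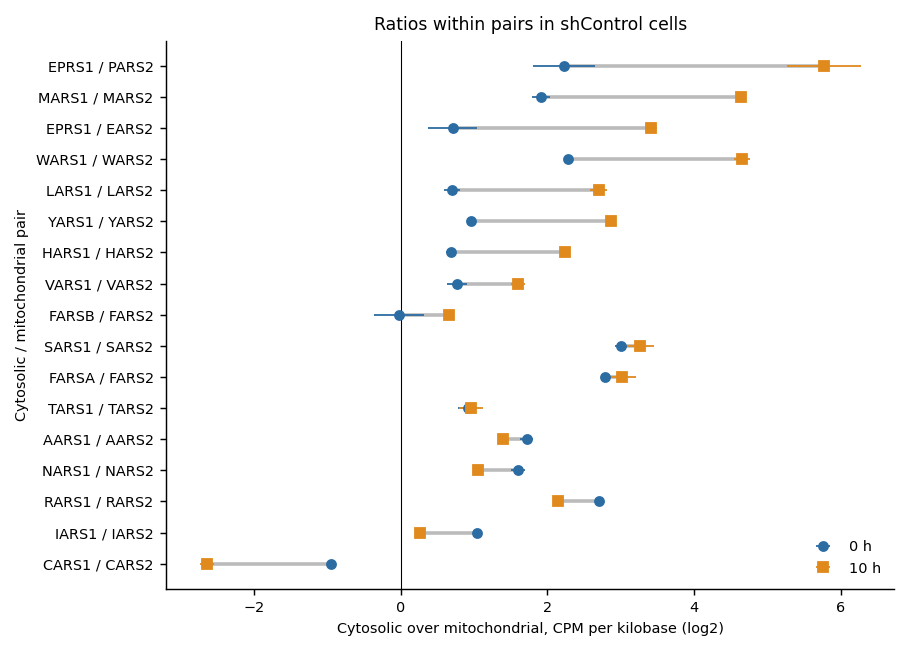
Log2 ratio of the cytosolic to the mitochondrial transcript in CPM per kilobase (x axis) for 17 pairs in shControl cells, as the mean of 2 libraries at 0 h (circles) and 10 h (squares) with the SD, ordered by the change. In 12 pairs the square lies to the right of the circle, and CARS1 with CARS2 stays below 0.

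Members with longer coding regions tended to have higher slopes. Across the 35 members Pearson's r between slope and coding length was 0.60 in shControl cells and 0.61 in shZNF598 cells (Spearman's rho 0.55 and 0.55), against 0.0037 and 0.06 over 10648 genes. It was 0.58 in the cytosolic and 0.56 in the mitochondrial members in shControl cells. With the length of the 3′ untranslated region r was -0.43 and -0.45 in the members and -0.29 and -0.30 over all genes. With the GC content of the last codon position it was -0.30 and -0.18 against 0.08 and 0.16, and with the share of T in the transcript, where bromouridine can stand, -0.06 and -0.16 against -0.19 and -0.27. The median 3′ untranslated region was 355 bases in the cytosolic and 684 bases in the mitochondrial members. These are descriptions over genes of the same libraries, which are not independent replicates.

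No synthetase had a slope that was shown to differ between the hairpins. The difference was called for 0 of 35 members by edgeR against a background of 0.116%, with 2 members at an unadjusted p below 0.05 (background 5.53%), and DESeq2 called 0 with 3 at an unadjusted p below 0.05. All backgrounds given here and below are edgeR's. No share over all transcripts is given for DESeq2, so its counts cannot be set against them. The 2 by edgeR were EPRS1, at -0.042 ± 0.018 (SE, shZNF598 minus shControl), and LARS1, at -0.037 ± 0.014. The differences of all members lay between -0.042 and 0.052, the latter in PARS2 with an SE of 0.10, and their median was -0.0014 where that of 10725 genes was 0.0038. Across the members the slopes of the 2 hairpins had a Pearson's r of 0.983, and across all genes 0.975, given as a description with no test.

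The levels of single times differed between hairpins for 1 member at 6 h and 1 at 10 h. At 0 h edgeR called 0 of 35 members (background 0.407%), with 1 at an unadjusted p below 0.05 (background 10.1%), at 2 h 0 (0.746%) with 0 (10.9%), and at 4 h 0 (1.4%) with 1 (12.2%). DESeq2 called 0 at each of these times, with 1, 1 and 2 at an unadjusted p below 0.05. At 6 h CARS1 was lower in shZNF598 cells, at -0.59 ± 0.14 (SE) on the log2 scale (adjusted p = 0.0174), 1 of 35 members where 2.29% of transcripts were called, and 7 had an unadjusted p below 0.05 (background 14.8%). At 10 h TARS2, the mitochondrial threonine enzyme, was higher, by 0.46 ± 0.10 (SE) (adjusted p = 0.012), 1 of 35 where 3.23% were called, and 9 had an unadjusted p below 0.05 (17.2%). Both calls rested on single libraries. That of CARS1 was lost without shControl 6 h replicate 1 (-0.67, adjusted p 0.0654) or 2 (-0.52, 0.200) or shZNF598 6 h replicate 1 (-0.39, 0.201), and that of TARS2 without shControl 10 h replicate 1 (0.49, 0.0526) or 2 (0.44, 0.15) or shZNF598 10 h replicate 2 (0.36, 0.166). DESeq2 called 2 members at 6 h and 5 at 10 h, adding IARS2 at 6 h and EPRS1, LARS1, YARS1 and IARS2, all lower, at 10 h. The shares of 2.29% and 3.23% are edgeR's and are no background for these DESeq2 counts. EPRS1 was also called at 10 h with RLE scaling (-0.40), without the filter on low counts (-0.38) and with 1 row per gene (-0.40), and IARS2 at 6 h with 1 row per gene (-0.35).

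With all 20 libraries joined, the mean level over 0-10 h differed for 7 of the 35 members, 3 higher and 4 lower in shZNF598 cells. This is 20% of the members, where 22.4% of all transcripts were called, 12.3% higher and 10.1% lower, and 27.7% of genes with 1 row each. The higher members, TARS2, YARS2 and AARS2, are all mitochondrial, and of the lower ones CARS1, YARS1 and QARS1 are cytosolic and IARS2 is mitochondrial. The median difference was -0.047 in the cytosolic and 0.042 in the mitochondrial members, and 0.025 over 10725 genes. DESeq2 also called 7, with no share over all transcripts given for it.

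**Figure D4:**
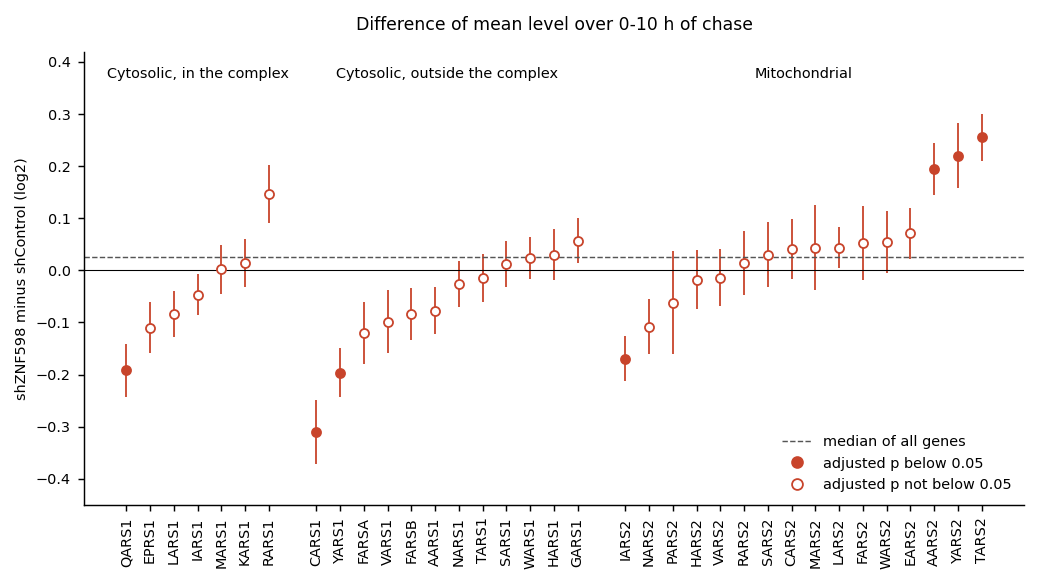
Difference of the mean log2 level over 0-10 h of chase, shZNF598 minus shControl (y axis), for the 35 members with the standard error of the fit over 20 libraries, filled where the adjusted p was below 0.05. The called members lie at -0.31 (CARS1), -0.20 (YARS1), -0.19 (QARS1) and -0.17 (IARS2) and at 0.19 (AARS2), 0.22 (YARS2) and 0.26 (TARS2).

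TARS2 (chr1:150487419-150507602, plus strand, 18 exons) was higher at every time. TARS2 in shControl cells stood at 17.1 and 18.6 CPM at 0 h, 17.8 and 17.8 at 2 h, 18.6 and 19.4 at 4 h, 16.6 and 16.96 at 6 h and 11.2 and 10.8 at 10 h. TARS2 in shZNF598 cells stood at 19.4 and 20.4 CPM at 0 h, 20.9 and 20.1 at 2 h, 22.1 and 21.4 at 4 h, 19.3 and 20.8 at 6 h and 14.1 and 16.2 at 10 h. Both shZNF598 libraries lay above both shControl libraries at all 5 times. The mean difference was 0.26 ± 0.045 (SE) on the log2 scale (adjusted p = 0.00023), and its slopes were -0.068 and -0.039 in shControl and shZNF598 cells. AARS2 (chr6:44298731-44313347, minus strand, 22 exons) was higher in every shZNF598 library than in every shControl library at 3 of the 5 times. AARS2 in shControl cells stood at 23.5 and 25.7 CPM at 0 h, 24.9 and 24.03 at 2 h, 28.01 and 25.9 at 4 h, 21.7 and 24.4 at 6 h and 16.9 and 16.7 at 10 h. AARS2 in shZNF598 cells stood at 27.5 and 28.7 CPM at 0 h, 28.2 and 24.5 at 2 h, 28.3 and 27.9 at 4 h, 26.7 and 29.7 at 6 h and 18.8 and 23.3 at 10 h. The mean difference was 0.19 ± 0.050 (SE) (adjusted p = 0.00685), with slopes of -0.055 and -0.035. YARS2, whose values are given above, was higher without overlap at 3 of the 5 times, with a mean difference of 0.22 ± 0.063 (SE) (adjusted p = 0.0134).

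CARS1 (chr11:3000929-3057423, minus strand, 23 exons) had the largest difference of the family. CARS1 in shControl cells stood at 5.26 and 6.28 CPM at 0 h, 5.96 and 6.26 at 2 h, 6.73 and 6.43 at 4 h, 5.58 and 6.18 at 6 h and 5.26 and 5.44 at 10 h. CARS1 in shZNF598 cells stood at 5.29 and 5.70 CPM at 0 h, 5.30 and 5.19 at 2 h, 5.19 and 5.60 at 4 h, 3.25 and 4.47 at 6 h and 4.22 and 4.00 at 10 h. The shZNF598 libraries lay below at 4 of the 5 times. The mean difference was -0.31 ± 0.061 (SE) on the log2 scale (adjusted p = 0.00071), with slopes of -0.014 and -0.050. YARS1 (chr1:32775239-32817358, minus strand, 13 exons), the cytosolic tyrosine enzyme, was also lower without overlap at 4 of the 5 times. YARS1 in shControl cells stood at 29.5 and 36.6 CPM at 0 h, 34.2 and 35.3 at 2 h, 38.9 and 37.4 at 4 h, 34.5 and 35.1 at 6 h and 31.7 and 32.2 at 10 h. YARS1 in shZNF598 cells stood at 28.7 and 29.8 CPM at 0 h, 30.9 and 30.8 at 2 h, 35.8 and 36.6 at 4 h, 27.4 and 32.1 at 6 h and 25.6 and 25.1 at 10 h. Its mean difference was -0.20 ± 0.047 (SE) (adjusted p = 0.00386), with slopes of -0.0070 and -0.024. For QARS1 it was -0.19 ± 0.051 (SE) (adjusted p = 0.00835) and for IARS2 -0.17 ± 0.043 (SE) (adjusted p = 0.00652). The tyrosine pair thus differed in opposite directions, YARS1 lower and YARS2 higher, and their log2 ratio per kilobase was 0.96 ± 0.048 at 0 h and 2.87 ± 0.060 at 10 h in shControl cells and 0.62 ± 0.10 at 0 h and 2.11 ± 0.073 at 10 h in shZNF598 cells (SD, n = 2).

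The other 28 members were not called, with mean differences between -0.12 (FARSA) and 0.15 (RARS1). RARS1 had both shZNF598 libraries above both shControl libraries at 4 of the 5 times, with a difference of 0.15 ± 0.055 (SE) and an adjusted p of 0.0576. EPRS1 was at -0.11 ± 0.049 (SE) with an adjusted p of 0.107. In SARS1, SARS2, HARS1 and FARS2 the hairpins overlapped at all 5 times.

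The transcript of AIMP2, a scaffold of the complex, stood lower in shZNF598 cells at every time, by more than any of the 7 enzymes of the complex. AIMP2 in shControl cells stood at 13.2 and 17.05 CPM at 0 h, 13.7 and 13.2 at 2 h, 11.5 and 11.95 at 4 h, 8.52 and 9.79 at 6 h and 7.33 and 7.98 at 10 h. AIMP2 in shZNF598 cells stood at 11.4 and 11.4 CPM at 0 h, 9.82 and 8.93 at 2 h, 6.44 and 7.64 at 4 h, 4.63 and 4.58 at 6 h and 3.89 and 4.08 at 10 h. The hairpins did not overlap at any time. The mean difference was -0.72 ± 0.057 (SE) on the log2 scale (adjusted p = 1.3e-09), and it was called at 2, 4, 6 and 10 h, at -0.94 ± 0.14 (SE) for 10 h. AIMP1 and EEF1E1, the other scaffold proteins, were named after their values were seen. AIMP1 in shControl cells stood at 11.4 and 9.67 CPM at 0 h, 13.3 and 14.2 at 2 h, 14.3 and 15.2 at 4 h, 16.3 and 17.5 at 6 h and 12.2 and 15.8 at 10 h. AIMP1 in shZNF598 cells stood at 11.3 and 9.81 CPM at 0 h, 11.9 and 13.99 at 2 h, 11.9 and 13.6 at 4 h, 14.7 and 12.4 at 6 h and 10.7 and 8.20 at 10 h. The mean difference of AIMP1 was -0.23 ± 0.064 (SE) (adjusted p = 0.0103), with the hairpins overlapping at 0 and 2 h and apart without overlap at 4, 6 and 10 h. EEF1E1 was at 0.01 ± 0.056 (SE) (adjusted p = 0.929). The slopes of AIMP1 were 0.038 and -0.018, called with neither hairpin, and those of AIMP2 -0.103 and -0.164 and of EEF1E1 -0.114 and -0.129, all called negative, where 6 of the 7 enzymes of the complex were positive. The slope differences of AIMP1 and AIMP2, -0.056 and -0.060, were not called (adjusted p 0.987 and 0.569).

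**Figure D5:**
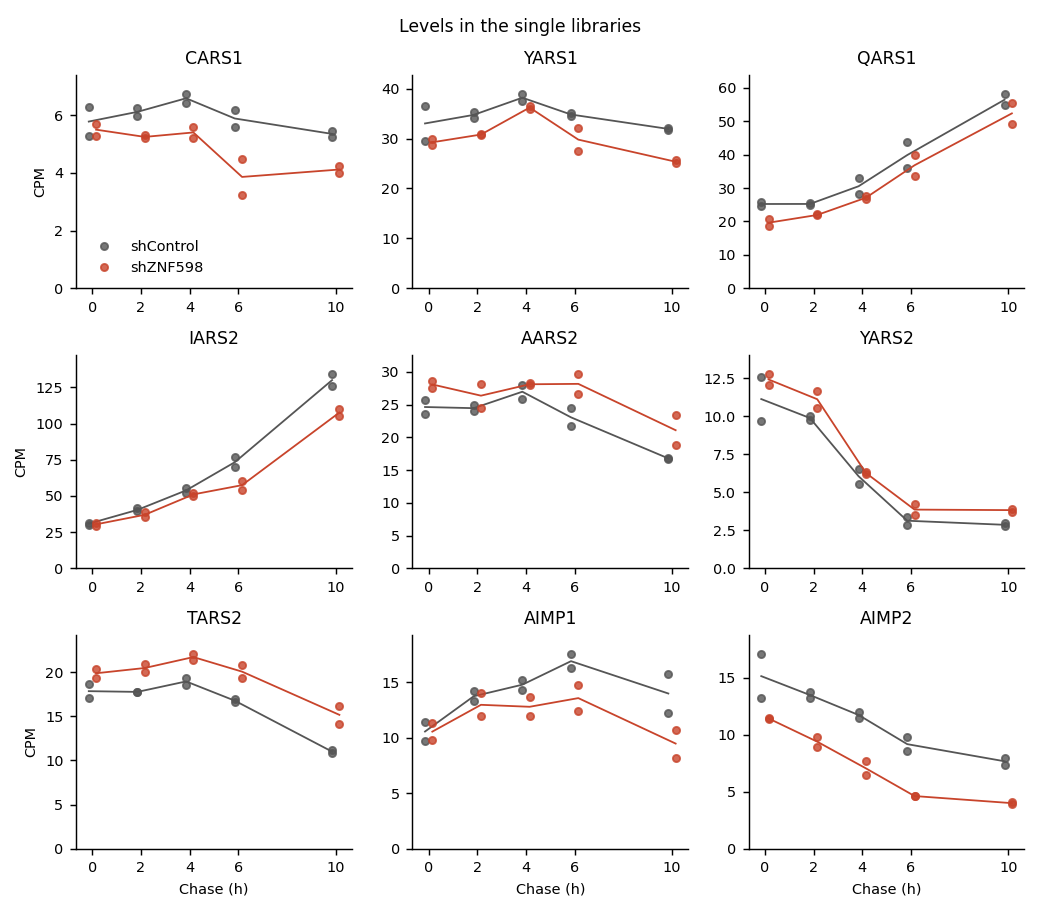
Level in CPM (y axes, from 0) in each library against hours of chase (x axes) for the 7 members called for mean level and for AIMP1 and AIMP2, with 2 points per hairpin and time (grey shControl, red shZNF598) and lines through the means. TARS2 and AIMP2 are separated at every time, in opposite directions, and the hairpins of IARS2 do not overlap at 2, 6 and 10 h.

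Of 18 genes that work beside the synthetases (scaffold proteins, proofreading and tRNA end enzymes, the mitochondrial amidotransferase and elongation factors), 17 were measured and 6 differed in mean level, 3 higher and 3 lower, where 27.7% of genes with 1 row each did (15.6% higher and 12.1% lower), with a median of 0.0092. GATB, a subunit of the mitochondrial glutamine amidotransferase, was higher by 0.26 ± 0.057 (SE) (adjusted p = 0.00186), and EEF1A1, the factor that brings charged tRNA to the ribosome, by 0.19 ± 0.044 (SE) (adjusted p = 0.00336). Of 24 genes of the ATF4 pathway 18 were measured and 8 differed, 6 higher and 2 lower, against the same 27.7% of genes (15.6% and 12.1%), with a median of 0.083. ATF4 itself was higher in every shZNF598 library than in every shControl library of the same time. ATF4 in shControl cells stood at 51.8 and 64.9 CPM at 0 h, 45.6 and 47.6 at 2 h, 40.9 and 44.3 at 4 h, 39.6 and 41.7 at 6 h and 38.1 and 38.1 at 10 h. ATF4 in shZNF598 cells stood at 87.3 and 84.04 CPM at 0 h, 71.2 and 71.1 at 2 h, 70.9 and 73.2 at 4 h, 71.9 and 75.1 at 6 h and 57.8 and 59.5 at 10 h. The mean difference was 0.68 ± 0.045 (SE) (adjusted p = 4.2e-11). PPP1R15A, which reverses the stress-induced block of initiation, was higher by 0.35 ± 0.075 (SE) (adjusted p = 0.00172), and SLC7A5, an amino acid transporter, was lower, at -0.23 ± 0.047 (SE) (adjusted p = 0.00119).

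None of the 6 synthetase genes with the element in their promoter was called higher in mean level where ATF4 was higher. Only 15.6% of genes with 1 row each were called higher, so 0 of 6 says little about these genes. The median mean-level difference of the 6 was -0.037, with 1 called, CARS1, and lower. That of the 10 cytosolic genes with a window and no element was 0.014, with 1 called, QARS1, and lower. Over genes with 1 row each 27.7% were called in either direction. At 0 h, the end of labelling, the median of the 6 was 0.045, with 4 above 0, and that of the 10 was 0.019, with 5 above 0. At 10 h the median of the 6 was -0.16, with all 6 below 0, and that of the 10 was 0.0061, with 5 below 0. Of all 19 cytosolic members 14 were below 0 at 10 h, with a median of -0.12. By edgeR 0 of the 6 were called at 10 h (background 3.23%) and 2 had an unadjusted p below 0.05 (17.2%). By DESeq2 0 of the 6 were called and CARS1, IARS1 and TARS1 had an unadjusted p below 0.05. Their slopes divided, with IARS1 and MARS1 positive with both hairpins and AARS1, NARS1 and TARS1 negative with both. The part of ATF4 in these levels was not tested.

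At 24 h, with 1 library per hairpin and no replicate check, most mitochondrial members stood above their 10 h level. Against the mean of 10 h the median log2 level at 24 h was -0.061 in the 19 cytosolic and 0.42 in the 16 mitochondrial members in shControl cells, and 0.063 and 0.23 in shZNF598 cells. In shControl cells 10 cytosolic and 5 mitochondrial members were below their 10 h level, and in shZNF598 cells 9 and 6. The 24 h levels were scaled with all 22 libraries and the 10 h levels with the 20 libraries of 0-10 h. No share over all genes is given for this comparison, so a shift shared with other genes cannot be told apart from a trait of these members. The summed level of the complex was 472.5 CPM in the shControl library and 427.0 CPM in the shZNF598 library, below each of the 10 h libraries. These libraries stood apart in depth and in ZNF598, and no test was made with them alone.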

How the data were processed

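As given in the labels and the study's methods, labelled RNA was pulled down with an anti-BrdU antibody, depleted of ribosomal RNA and sequenced as stranded single-end libraries. The authors trimmed reads with fastp, removed noncoding RNA reads and aligned the rest with STAR 2.7.0a to hg38 with GENCODE release 32, with 1 mismatch and 1 locus allowed, and CASAVA 1.8 is named in the submitters' processing notes. The deposited values are raw read counts per transcript from featureCounts. Rows were named here with GENCODE release 44, in which 98.4% of identifiers were found. The members, gene lists and tests were chosen with earlier results of these data known. Rows that averaged 1 CPM or more in the 20 libraries of 0-10 h entered the tests (79513 transcripts of 15093 genes, all 35 members among them), were scaled by TMM and were tested with edgeR 4.0.16 in R 4.3.3, with 1 mean per group for levels and hairpin, hours and their product for slopes, adjusted over all rows. The standard error is the log2 value divided by the square root of F. DESeq2 1.42.0 gave half-lives and an alternative test. Tests ran on simulated data first. Depth limits PARS2, MARS2, FARS2 and WARS2 most, with fewest counts of 30, 46, 93 and 88 in a library. Library values were given for members called between hairpins and, per location, for the 2 highest and 2 lowest mean slopes and the largest slope difference in each direction, and up to 3 genes with the smallest p were named per list. No batch is named in the labels.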

Additional observations from a re-analysis of the deposited data

How the results depend on the processing

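Alternatives were another normalization (RLE), no filter on low counts, DESeq2, 1 row per gene, the MANE Select row, a replicate block, other chase windows, and leaving out each library or each replicate number of all groups. The chase windows and replicate numbers were tried for slopes and half-lives, not for levels. The MANE Select row was the row already used for 31 members, all 7 called for mean level among them. For these it could change nothing, and its 58 values all count as kept below. The 7 calls of mean level held in every alternative run, the count of 0 was kept at 0, 2 and 4 h and for the slope difference, and of the values of single called members under the alternatives 1587 kept direction and call, 148 kept direction only and 18 changed sign. The cause of these changes was not tested.

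The count of members called at 6 h was 2, not 1, with 1 row per gene and with DESeq2. At 10 h it was 2, not 1, with RLE, without the filter and with 1 row per gene, and 5 with DESeq2. The slope in shControl cells was called for 15 members over 0-4 h and 5 over 0-24 h, not 24, and that in shZNF598 cells for 4 over 0-24 h, not 25. No share over all transcripts is given for these alternative fits, so a change common to all transcripts cannot be told apart from one of the members. The count of reliable half-lives fell to 0 with a fixed window of 0-10 h, where the share of genes with one fell from 24.6% to 4.90%. Leaving out libraries gave 0 to 2 calls at 6 h, 0 to 3 at 10 h, 7 to 9 for mean level, 17 to 27 and 17 to 25 for the slopes, 2 to 3 half-lives, and ZNF598 changes of -3.11 to -3.00.

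The median slope of the cytosolic members in shControl cells, near 0, moved to 0.012 with RLE, 0.0057 without the filter, 0.0086 with 1 row per gene, and 0.044, 0.034 and 0.013 over 0-4, 0-6 and 0-24 h. In shZNF598 cells it moved to 0.0086 with RLE and 0.054 and 0.046 over 0-4 and 0-6 h. That of the mitochondrial members in shControl cells moved to -0.050 with RLE, -0.056 without the filter, -0.053 with 1 row per gene, and 0.021, -0.0064 and -0.026 over the 3 windows. In shZNF598 cells it moved to -0.032 with RLE, -0.034 with 1 row per gene, and 0.0090, -0.010 and -0.014 over the windows. The cytosolic median of the slope difference moved to -0.0088 with RLE, -0.0084 without the filter and 0.0079 and -0.0036 over 0-4 and 0-24 h. Without every replicate 1 the cytosolic medians were 0.0050 in shControl cells and -0.0087 for the difference, which without every replicate 2 was -0.011. Leaving out libraries, the cytosolic medians ranged from -0.0021 to 0.010, -0.0052 to 0.018 and -0.019 to -0.0010 for shControl, shZNF598 and their difference, and the mitochondrial ones from -0.076 to -0.048, -0.051 to -0.032 and -0.0077 to 0.022.

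Signs of single called slopes changed only with the chase window. Over 0-4 h these were, in shControl cells, NARS1 at 0.038, AARS2 at 0.022, EARS2 at 0.020, FARS2 at 0.058 and TARS2 at 0.011 and, in shZNF598 cells, NARS1 at 0.026, TARS1 at 0.0086, EARS2 at 0.0070, FARS2 at 0.027 and TARS2 at 0.031. Over 0-6 h they were NARS1 at 0.034 in shControl and NARS1 at 0.0024, AARS2 at 0.0040 and TARS2 at 0.0051 in shZNF598 cells. Over 0-24 h they were WARS1 at -0.010 and VARS2 at -0.00014 in shControl and WARS1 at -0.016 and NARS2 at 0.010 in shZNF598 cells.

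The deviations between same-numbered replicates were correlated over 45 pairs of groups. The correlations ran from -0.305 to 0.427 with a median of 0.023, and 12 were over 0.1. No threshold was set for this check, so it cannot tell whether the numbers pair some of the libraries. The replicate block gave 2 calls at 10 h in place of 1, adding EPRS1.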
